A study of Homo sapiens with 5 samples.

Results

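The genes described here are 10 enzymes that make purine and pyrimidine nucleotides: PRPS2, PPAT, GART, PAICS, ADSL, ATIC, IMPDH2, CAD, UMPS and CTPS1. They were chosen by symbol as known MYC-driven metabolic genes, from the 10976 genes that appear in each of the 3 deposited tables. Presence in every table was a condition of the choice and is not a result. RNA was sequenced from HLF, a human hepatocellular carcinoma cell line, to follow the loss of the deubiquitinase USP28 and its replacement by a wild-type or a monomeric protein. The 5 conditions were USP28-Ctrl cells, which received a control guide, USP28-KO cells, and USP28-KO cells that carried a control vector, USP28-WT or USP28-M, a point mutant that cannot dimerize. The knockout was made with CRISPR/Cas9 and single clones were picked, and the reconstituted cells received lentiviral vectors, so that the USP28-KO background is shared by 4 of the 5 conditions. The series lists 1 sample per condition.

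The values used are the authors' average log2 CPM (read counts scaled to library size, on a log2 scale) for each gene over all libraries of a fit. The USP28-Ctrl and USP28-KO libraries form the first fit, here the control and knockout cells. The vector, USP28-WT and USP28-M libraries form the second, here the reconstituted cells, since the USP28-WT table and the USP28-M table hold the same average for each of their 12342 genes. Levels in a single condition, and differences between conditions, are not analysed here, so nothing below says whether USP28 changed any of these mRNAs. An average has no spread between replicates, and the intervals given cover counting error only. The steps between the lowest averages put the depth at about 7690000 reads over all libraries of the control and knockout cells and about 30470000 over those of the reconstituted cells. The number of libraries behind each total was not given in the sources used here.

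Cells build purines on phosphoribosyl pyrophosphate (PRPP), a sugar phosphate that PRPP synthetases make from ribose 5-phosphate. A chain of enzymes turns PRPP into inosine monophosphate (IMP), from which AMP and GMP branch. Pyrimidines are made the other way round, with the ring built before the sugar phosphate is added to give UMP, and CTP is made from UTP. Proliferating cells rely on both routes to supply RNA and DNA synthesis, and many of the enzyme genes are known targets of MYC, which binds the E-box CACGTG.

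PPAT and PAICS, which encode the opening enzyme of the purine chain and a bifunctional enzyme further along it, lie head to head on chromosome 4. In GENCODE release 29 on GRCh38, PPAT (NCBI gene 5471) runs from 56393362 to 56435615 on the minus strand, and PAICS (NCBI gene 10606) from 56435741 to 56464579 on the plus strand. The stretch of 125 bases between their start sites is shown because it is upstream of both genes. It lies at chr4:56435616-56435740, is given on the plus strand from 5′ to 3′, and has a GC content of 76.0%. Capitals mark 3 copies of GGGCGG, searched on both strands.
PPAT and PAICS, between the starts: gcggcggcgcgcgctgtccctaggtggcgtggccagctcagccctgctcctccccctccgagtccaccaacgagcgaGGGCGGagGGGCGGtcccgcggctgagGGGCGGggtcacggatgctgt

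Promoter windows of 250 bases before to 50 after a start site, from RefSeq on GRCh38.p14, were at hand for 8 of the 10 genes, with 13 windows in all because a gene can have several starts. The E-box CACGTG, which reads the same on both strands, was in 3 of the 13 windows (23.1%), against 2548 of 35116 windows of all genes (7.26%). These were the windows of PPAT and ATIC and 1 of the 3 windows of PAICS. The PPAT and PAICS windows share 1 site, which is counted in each. Because the 10 genes were chosen as known MYC-driven genes, no conclusion is drawn from the higher share. GGGCGG was in 8 of the 13, against 45.0% of all windows. The 30 bases around each E-box are printed below in the direction of transcription of the named gene, with the motif in capitals, to show that PPAT and PAICS hold the same site. That site, chr4:56435792-56435797, lies at -182 from the RefSeq start of PPAT and at 41 from that of PAICS, inside its transcript. The ATIC sites lie at -46 and 30 from its start. A match of these letters is a description of the sequence and not evidence of binding.
PPAT, chr4:56435780-56435809, minus strand: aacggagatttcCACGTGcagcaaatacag
PAICS, chr4:56435772-56435801, plus strand: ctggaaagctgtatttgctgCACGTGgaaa
ATIC, chr2:215312001-215312030, plus strand: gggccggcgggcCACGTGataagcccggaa
ATIC, chr2:215312076-215312105, plus strand: ctcctacctgcgCACGTGgtgccgccgctg

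Taken as a group, the 10 enzyme mRNAs, which had to be in every table to be chosen, were abundant. Their CPM summed to 2504 in the control and knockout cells and to 2498 in the reconstituted cells, 0.250% of the reads in each. Their median log2 CPM was 7.98 and 8.0, against medians of 5.33 and 4.90 over all genes of the tables, and their median percentile by CPM was 93.6 and 94.2. Because a longer transcript yields more reads, levels of different genes are compared below as CPM per kilobase of the longest protein-coding transcript. On that scale the median of the 10 was 56.1 and 46.4 CPM per kilobase, against 12.1 over 10428 genes and 9.47 over 11273 genes, and 9 of the 10 were above the median of all genes in both fits. UMPS was the exception on that scale. By CPM it stood at percentiles 47.2 and 53.2, and 9 and 10 of the 10 were above the median. This count depends on the genes ranked. Among the genes present in every table, UMPS stood at percentiles 46.6 and 47.4, below the median in both fits. The tables were normalised separately, so values set side by side across them are a description.

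PRPS2, an X-linked PRPP synthetase (NCBI gene 5634), opens the supply of PRPP. Its average was a log2 CPM of 6.02 in the control and knockout cells, from about 498 reads, and 5.61 in the reconstituted cells, from about 1485 reads. Per kilobase it stood at 25.8 CPM (95% interval 23.6 to 28.1) and 19.4 CPM (18.4 to 20.4), at percentiles 71.9 and 68.4 of all genes. It was the minor PRPP synthetase mRNA of these cells. Its paralogue PRPS1 had a log2 CPM of 8.17 and 7.56, and PRPS2 gave 18.4% of the reads of the pair (exact binomial interval 16.9 to 19.9) in the control and knockout cells and 20.6% (19.7 to 21.5) in the reconstituted cells. Per kilobase, PRPS1 was 5.19-fold and 4.50-fold higher than PRPS2.

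PPAT, the amidophosphoribosyltransferase that commits PRPP to purine synthesis, was the lowest of the 5 enzymes on the way from PRPP to IMP. Its log2 CPM was 6.54 and 5.86, with about 718 and 1764 reads, and its level per kilobase 25.3 CPM (23.5 to 27.3) and 15.7 CPM (15.0 to 16.5). GART, which carries several steps of the chain on a single polypeptide, had a log2 CPM of 7.86 and 8.14 and stood at 66.4 CPM per kilobase (63.3 to 69.5) and 80.9 (79.2 to 82.6). Between PPAT and GART the intervals did not overlap in either fit.

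PAICS followed with a log2 CPM of 9.16 and 9.14, the highest CPM of the 10 before length is taken into account, and with 88.2 CPM per kilobase (85.6 to 90.9) and 87.1 (85.8 to 88.4). The paired genes differed in level. PAICS was 3.48-fold and 5.54-fold higher than PPAT per kilobase of transcript, and 7.33-fold and 11.7-fold higher per kilobase of coding sequence. PAICS took 86.0% and 90.7% of the reads of the pair.

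ADSL, adenylosuccinate lyase, acts in the chain to IMP and again on the branch to AMP. Its log2 CPM was 7.73 and 7.53, or 48.5 CPM per kilobase (46.2 to 51.0) and 42.4 (41.3 to 43.5). Of its longest transcript, 24.4% of the windows of 100 bases also occur in another annotated gene, AL022238.4, which shares 1336 of its bases on the same strand, so the reads of ADSL depend on how the counting treated that overlap. Shared windows were fewer in GART (3.72%, with SON on the opposite strand), PPAT (3.49%, mostly with the pseudogene PPATP1) and PAICS (0.439%). At 100 bases none were found in the other 6 transcripts. With windows of 50 bases, IMPDH2 shared 1.63% with AC137630.3 on the opposite strand. ATIC, the bifunctional enzyme that closes the chain to IMP, was the most abundant of the 5 per kilobase of the longest transcript, at 135 CPM (130 to 141) and 141 CPM (138 to 144), with a log2 CPM of 8.27 and 8.33. Per kilobase of coding sequence PAICS was higher, at 441 and 435 CPM against 173 and 181 for ATIC.

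IMPDH2 is the dehydrogenase that turns IMP towards GMP and limits the rate of guanine nucleotide synthesis. It was the most abundant of the 10 per kilobase of the longest transcript, at 247 CPM (238 to 256) and 275 CPM (270 to 279). That placed it at percentiles 97.9 and 98.3 of all genes, and its log2 CPM was 8.66 and 8.82. Per kilobase of coding sequence PAICS was higher, at 441 and 435 CPM against 263 and 293 for IMPDH2. IMPDH1, the paralogue of IMPDH2, was low, with a log2 CPM of 3.61 and 3.08. IMPDH2 gave 97.1% of the pair's reads (96.4 to 97.6) in the control and knockout cells and 98.2% (97.9 to 98.4) in the reconstituted cells. In reads this is about 3121 against 94 and 13746 against 258.

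**Figure D1:**
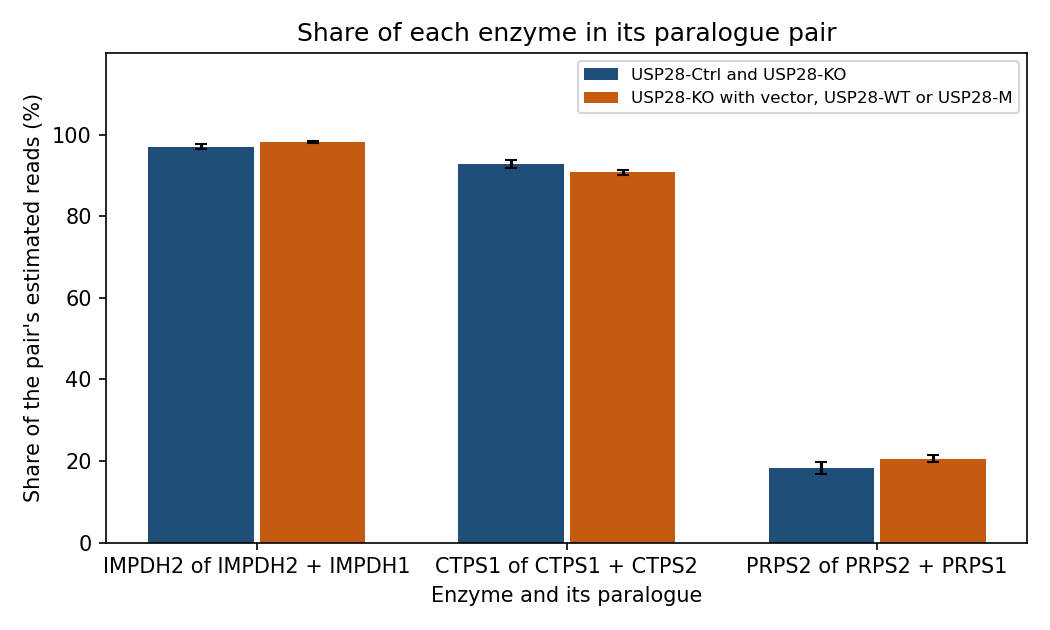
Share of estimated reads that each enzyme takes within its paralogue pair, in percent, with exact 95% binomial intervals that cover counting error only. IMPDH2 and CTPS1 make up 90.8% or more of their pairs in both fits, whereas PRPS2 makes up 18.4% and 20.6%.

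CAD carries the opening activities of pyrimidine synthesis, carbamoyl phosphate synthetase, aspartate transcarbamoylase and dihydroorotase, in a single large protein. Its transcript of 7265 bases in 44 exons is the longest of the 10. Its log2 CPM was 8.10 and 8.32, which gave 37.9 CPM per kilobase (36.3 to 39.5) and 44.1 (43.2 to 45.0). By CPM alone, CAD ranked above ADSL, GART and UMPS in both fits.

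UMPS, the bifunctional enzyme that closes the route to UMP, was the lowest of the 10 on both scales. Its log2 CPM was 5.22 and 5.08, from about 287 and 1031 reads, and its level 5.54 CPM per kilobase (4.91 to 6.22) and 5.02 (4.72 to 5.34), at percentiles 26.4 and 33.5 of all genes per kilobase. Its longest annotated transcript has 6738 bases, and with the coding sequence in place of that transcript UMPS stood at 25.9 and 23.5 CPM per kilobase, still the lowest of the 10. The ratio of IMPDH2 to UMPS per kilobase of transcript was 44.6 and 54.7. DHODH, the mitochondrial enzyme that precedes UMPS, was also low, at 3.96 and 4.23 CPM per kilobase.

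CTPS1, the CTP synthase that makes CTP from UTP, had a log2 CPM of 8.25 and 7.87 and stood at 63.6 CPM per kilobase (61.0 to 66.2) and 48.7 (47.6 to 49.9). It was the major CTP synthase mRNA of these cells, with 92.8% of the reads of CTPS1 and CTPS2 (91.8 to 93.8) in the control and knockout cells and 90.8% (90.1 to 91.4) in the reconstituted cells. CTPS2 had a log2 CPM of 4.56 and 4.57, and CTPS1 was 11.7-fold and 8.87-fold higher per kilobase.

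In the control and knockout cells the order per kilobase, from the highest, was IMPDH2, ATIC, PAICS, GART, CTPS1, ADSL, CAD, PRPS2, PPAT and UMPS. In the reconstituted cells CAD came before ADSL and the order was otherwise the same. The neighbours GART and CTPS1, and PRPS2 and PPAT, had overlapping counting intervals in the control and knockout cells, as had CAD and ADSL in the reconstituted cells. The log2 CPM values of both fits had a Pearson correlation of 0.982 across the 10 genes, which are not independent replicates and come from cells of the same line. The order depends on the length that is used. Over 8 orders (4 definitions of length in each fit) UMPS was in place 10 throughout, IMPDH2 in place 1 or 2 and ATIC in place 2 or 3. PAICS ranged from place 1 to place 5 and CAD from place 1 to place 9. CAD came to place 1 only with the median protein-coding transcript. That length is 0.953 kilobases for CAD, too short for its coding sequence of 6.675 kilobases.

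All 6 enzymes of the chain to IMP, PFAS included, were above the median of all genes per kilobase in both fits, and the median of the 6 was 57.5 and 61.6 CPM per kilobase. The genes for deoxynucleotides and nucleotide kinases had a median of 64.6 and 53.3. PFAS, which acts in the chain between separate activities of GART and is not one of the 10, had a log2 CPM of 7.37 and 7.42. Of the 4 genes found from IMP to AMP and GMP, 3 were above the median, and IMPDH1 was not. Of the 5 pyrimidine genes, 2 were above the median, CTPS1 and CAD, in both fits. All 4 genes of PRPP supply were above it, with PRPS1 highest at 134 and 87.4 CPM per kilobase and PRPSAP1 lowest at 16.5 and 15.1. Over 8 lists with 63 genes, the 10 included, 59 and 61 were found in the tables and 48 and 49 were above the median of all genes per kilobase. The 49 and 51 of them that are not among the 10 had a median of 31.1 and 29.3 CPM per kilobase, against 56.1 and 46.4 for the 10. The 10 had to be present in every table, and the other genes did not. These are counts and medians without a test.

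**Figure D2:**
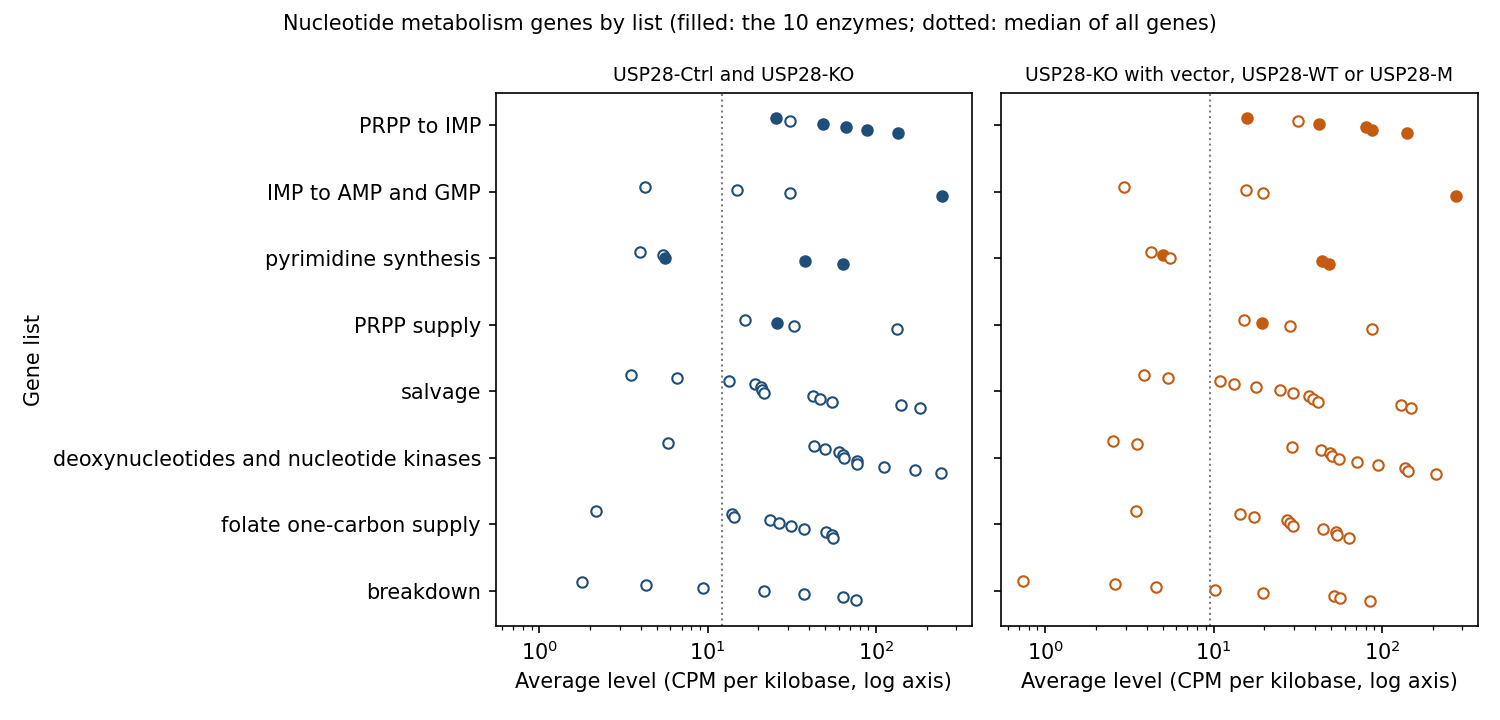
Average level in CPM per kilobase (log axis, the same for both panels) of each gene of 8 nucleotide metabolism lists, filled for the 10 enzymes and open for the others, with a dotted line at the median of all genes. The filled points of the chain to IMP all lie to the right of the line, and in pyrimidine synthesis UMPS lies to its left while CAD and CTPS1 lie to its right.

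Between the fits, the average log2 CPM of 4 of the 10 enzymes was higher in the reconstituted cells and that of 6 was lower. The differences (reconstituted minus control and knockout) ran from -0.69 for PPAT, -0.41 for PRPS2 and -0.38 for CTPS1 to 0.22 for CAD and 0.29 for GART. Their median was -0.080, while the median over all 10976 genes was -0.12 with an SD of 0.61 across genes. Of the 10, 7 lay within the middle 50% of all genes (-0.50 to 0.20) and all 10 within the middle 90% (-1.24 to 0.67). The fits were made and normalised separately and differ in condition, so these differences have no test and belong to no condition.

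The difference between the fits varied with the GC content of a transcript, with a Spearman correlation of 0.488 across 10349 genes that share the same libraries. The relation was not even over the range. The median difference went from -0.86 at 34 to 36% GC up to 0.15 at 52 to 54% and was between 0.00091 and 0.11 in the bins from 54 to 66%. PPAT, with the lowest GC content of the 10 (37.9%), differed by -0.69, and genes within 2.5 points of its GC content had a median of -0.66. For CTPS1, at 47.1% GC, the difference of -0.38 stood beside a median of -0.00064 at like GC content, and for GART, at 46.5%, the difference of 0.29 stood beside -0.030. The part of GC content in these differences was not tested.

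**Figure D3:**
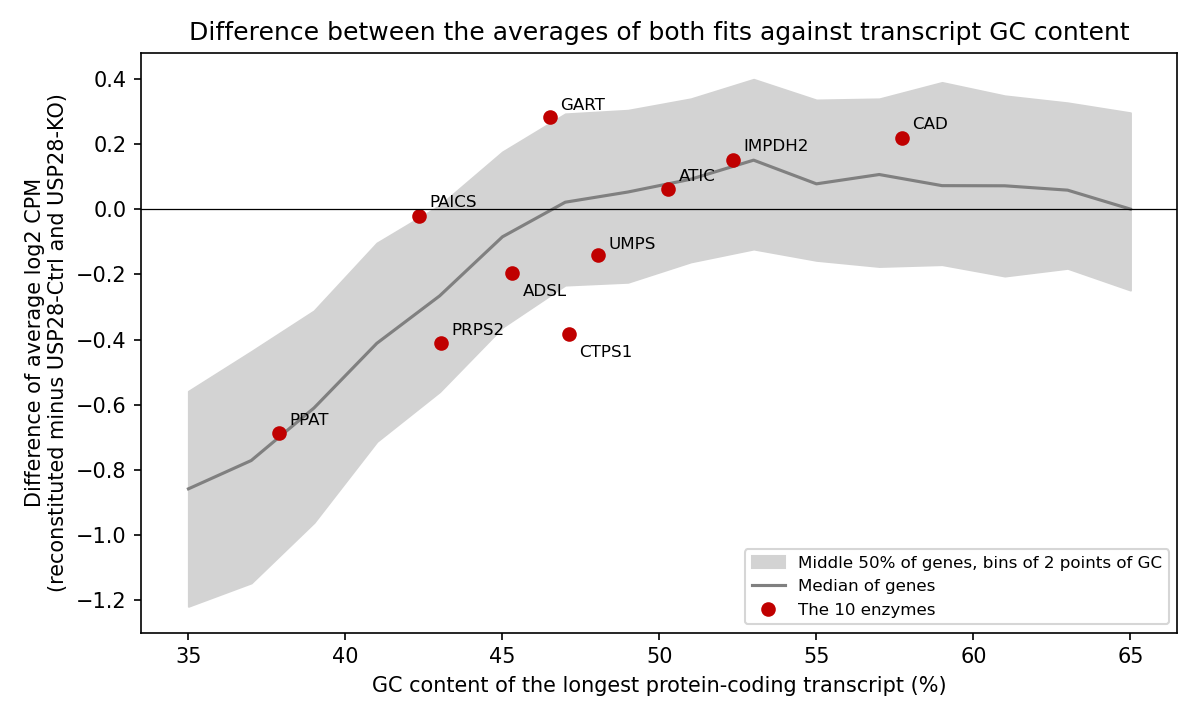
Difference of average log2 CPM between the fits (reconstituted minus USP28-Ctrl and USP28-KO) against the GC content of the longest protein-coding transcript in percent, with the median (line) and the middle 50% (band) of all genes in bins of 2 points of GC. PPAT lies near the line at -0.69, and CTPS1 lies below the band at -0.38.

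As a check of the cell line, 0 of 7 hepatocyte markers (ALB, APOA1, APOB, TTR, SERPINA1, HNF4A and AFP) were listed for the control and knockout cells and 1 of 7, SERPINA1 at a log2 CPM of 1.88, for the reconstituted cells. KRT8, KRT18 and VIM were high, with log2 CPM from 10.66 to 12.02, and CDH1 was in none of the tables. MYC had a log2 CPM of 6.63 and 7.15. USP28 had a log2 CPM of 5.15 and 9.79, but an average over conditions cannot check the knockout label.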

How the data were processed

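RNA sequencing of HLF cells covered 5 conditions with 1 listed sample each, grouped by their labels. Total RNA was extracted with TRIzol and libraries were made with a NEBNext kit (Ultra II in the labels, Ultra in the study's methods) and sequenced on a NovaSeq instrument. The authors' processing notes name bcl2fastq 2.20, STAR 2.5.4, edgeR 3.26.8 and hg19. The counting and the filter on low genes are not given in the sources used here.

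The authors deposited 3 tables of comparisons. Their columns of fold changes, F statistics, p-values and adjusted p-values are the authors' own comparisons and were not used. The remaining deposited column, the average log2 CPM over all libraries of a fit, was used as the authors' mean. The tables hold no counts per sample (0 unmatched columns), so the edgeR test that was planned for counts was not run and no p-value was computed.

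The members and lists were chosen with earlier results of these data known. Named genes are the members, the highest and lowest gene of each pathway list, paralogues, the marker genes, MYC and USP28. Some genes that this rule names are not reported here. Reads were estimated as CPM divided by the step of the 1000 lowest averages (0.130 and 0.0328 CPM), of which 97.1% and 71.8% lay within 0.1 reads of a whole number, so the estimate is less certain for the reconstituted cells. The step finder was tested on simulated whole counts, scaled by the step already found and with slight noise added. It returned that step within 0.0020% and 0.0054%. The simulation held no averaging over libraries, so it cannot check the read estimates from the real averages. Intervals (95%) are exact Poisson for levels and Clopper-Pearson for shares. They treat the libraries as pooled. Lengths, GC content and coordinates came from GENCODE release 29 (GRCh38), not the authors' build, and covered 93.9% and 91.3% of genes. Alternatives were other lengths, other sets of ranked genes and shorter sequence windows. Promoter windows came from RefSeq (GRCh38.p14). The depth estimate, paralogue shares, promoter and overlap searches and the comparison between the fits were chosen after seeing the data. Scripts ran in Python 3.11.15 with scipy 1.17.1, pandas 2.3.3, numpy 2.4.6 and, for plots, matplotlib 3.10.9.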

Additional observations from a re-analysis of the deposited data

How the results depend on the processing

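Single levels per kilobase moved by more than their counting interval in 57 of 60 cases with another definition of length, and the other 3 stayed within it. These 3 were UMPS with merged exons in the control and knockout cells, and PPAT with the median transcript in both fits. PPAT has 1 protein-coding transcript, so its median and longest lengths are the same and its level could not move. With merged exons, the levels in CPM per kilobase were PPAT 17.2, GART 29.9, PAICS 76.1, ADSL 29.8, ATIC 78.4, CAD 32.7, IMPDH2 146, CTPS1 26.4 and PRPS2 23.5 in the control and knockout cells, and PPAT 10.6, GART 36.4, PAICS 75.1, ADSL 26.0, ATIC 81.8, CAD 38.1, UMPS 4.46, IMPDH2 163, CTPS1 20.3 and PRPS2 17.7 in the reconstituted cells. With the median protein-coding transcript, the levels in CPM per kilobase were GART 145, PAICS 171, ADSL 191, ATIC 211, CAD 289, UMPS 10.7, IMPDH2 276, CTPS1 125 and PRPS2 72.7 in the control and knockout cells, and GART 177, PAICS 169, ADSL 167, ATIC 220, CAD 336, UMPS 9.71, IMPDH2 307, CTPS1 95.7 and PRPS2 54.7 in the reconstituted cells. For CAD, GART, ADSL, ATIC, IMPDH2 and PRPS2 this median length was shorter than the longest coding sequence, most of all for CAD. With the longest coding sequence, the levels in CPM per kilobase were PPAT 60.1, GART 76.5, PAICS 441, ADSL 142, ATIC 173, CAD 41.2, UMPS 25.9, IMPDH2 263, CTPS1 172 and PRPS2 67.3 in the control and knockout cells, and PPAT 37.3, GART 93.2, PAICS 435, ADSL 124, ATIC 181, CAD 48.0, UMPS 23.5, IMPDH2 293, CTPS1 132 and PRPS2 50.6 in the reconstituted cells. The median level of the 10 was 29.8 and 31.2 with merged exons, 158 and 168 with the median transcript and 109 and 108 with the coding sequence, and the ratio of the highest to the lowest gene was then 29.7 and 36.4, 26.9 and 34.6, and 17.0 and 18.5. The median percentile was 87.1 and 85.8 when genes were ranked per kilobase. In the reconstituted cells it was 92.9 among genes with a log2 CPM of at least 3 and 93.5 among genes in all tables. In the other cases it stayed within its interval. Of 80 single percentiles 42 moved and 38 did not, and of 20 shares of sequence held in common with another gene 9 moved and 11 did not. Why they moved was not tested, beyond the change of length or of the genes ranked. No direction between conditions was examined, so none could turn. Depth limits UMPS and PRPS2 most, which rest on about 287 and 498 reads in the control and knockout cells. Leaving out a library and another count model were not run, since the tables hold only averages. No paired analysis was possible because no result comes from a test and each condition has 1 listed sample.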

Other observations

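The 12 salvage genes that were listed, which recycle bases and nucleosides, were all found, and 10 of them were above the median of all genes per kilobase in both fits. APRT, which salvages adenine, was highest at 182 CPM per kilobase in the control and knockout cells and 148 in the reconstituted cells, and the mitochondrial thymidine kinase TK2 lowest at 3.51 and 3.87. Of the genes for deoxynucleotides and nucleotide kinases, 11 and 12 of 12 were found, with 10 above the median in both fits. RRM2, the regulatory subunit of ribonucleotide reductase, led them at 244 and 210 CPM per kilobase, beside IMPDH2 at 247 and 275, and its p53-inducible relative RRM2B stood at 5.77 and 2.53.

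The list of one-carbon supply, which holds folate enzymes and the serine synthesis enzymes PHGDH, PSAT1 and PSPH, was found in full (10 of 10) with 9 above the median in both fits. SHMT2, the mitochondrial serine hydroxymethyltransferase, was highest in the reconstituted cells at 63.4 CPM per kilobase. Of the genes of nucleotide breakdown, 7 and 8 of 9 were found and 4 and 5 were above the median. ADA was highest at 76.3 and 84.4 CPM per kilobase. GDA was in none of the tables, and XDH, the last enzyme before uric acid, was listed for the reconstituted cells alone, at 0.739 CPM per kilobase. A gene outside a table can have fallen to the authors' filter and is not shown to be absent.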
